A study of Gallus gallus with 6 samples.

Results

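Transcript levels of the enzymes of glycolysis, pyruvate handling, the citrate cycle and gluconeogenesis were compared between the ceca and the interceca of the chick embryo. Of 37 enzymes named for this set, 34 were matched by symbol, without regard to case, among the 17108 genes of the deposited table, and PC, PCK1 and PCK2 were not matched. The series holds 6 RNA-seq libraries, 3 of ceca and 3 of interceca, from the gut of chick embryos at embryonic day 5, Hamburger-Hamilton stage 26. The ceca are the paired blind pouches at the border of midgut and hindgut, and interceca is the labels' name for the other dissected region. No treatment, strain or genetic change is given for either tissue, and the labels do not say whether a library came from separate embryos or from a pool, so p-values measure the spread between these libraries, which may be technical. Each library is a whole dissected tissue with several cell types. In such bulk samples, fewer cells of a type and less RNA per cell cannot be told apart.

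Glycolysis splits glucose into pyruvate in the cytosol and yields ATP without oxygen. Lactate dehydrogenase turns pyruvate into lactate, while the pyruvate dehydrogenase complex, which the PDK kinases switch off by phosphorylation, turns it into acetyl-CoA for the citrate cycle in mitochondria. In the chick embryo, glycolysis is known to be graded along the growing body axis, being high in the tail bud and young presomitic mesoderm.

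Reads recovered from the deposited RPKM (reads scaled to gene length and library size) came to between 20672186 and 22544831 per ceca library and between 15566780 and 22498130 per interceca library. The tested enzymes rested on 64 to 103705 recovered reads per library. Both tissues carried the gut mesenchyme gene FOXF1, at 313 to 344 RPKM in ceca and 313 to 328 RPKM in interceca. Of the other 3 gut mesenchyme genes, COL3A1 was 2.66-fold lower in ceca, while BARX1 averaged 1.92 ± 0.967 RPKM in ceca and 4.29 ± 2.16 RPKM in interceca and did not pass. PDGFRA averaged 91.4 ± 6.81 RPKM in ceca and 75.6 ± 8.33 RPKM in interceca (adjusted p = 0.0513, and 0.00260 with the replicate block). Markers of gut epithelium were far lower in ceca: 8 of 9 tested were lower, and the summed level of the 11 found was 93.1 to 144 RPKM in ceca against 477 to 717 RPKM in interceca. CDX2 was higher in ceca (adjusted p = 0.0171, but 0.0555 and 0.0648 when replicate 2 or 3 of the ceca was left out, and 0.0559 and 0.0609 when replicate 2 or 3 of the interceca was). Of 6 smooth muscle markers tested, 5 were lower in ceca, with sums of 192 to 219.9 RPKM in ceca against 467 to 490.4 RPKM in interceca. Of 8 neuronal markers, 4 were lower and 4 did not pass, with sums of 788 to 863 RPKM in ceca and 932 to 1004 RPKM in interceca. The count of lower neuronal markers was 0 without ceca replicate 3, 1 without interceca replicate 1 or 3 and 6 without ceca replicate 2. Of 4 mesothelial markers, 3 were higher and 1 was lower in ceca, with sums of 264 to 290.2 RPKM in ceca against 82.0 to 92.3 RPKM in interceca. The lower marker, MSLN, averaged 0.561 ± 0.136 RPKM in ceca and 4.60 ± 0.372 RPKM in interceca. MSLN passed the filter only through the interceca libraries, so lower in ceca was the only call open to it. The part of these tissue differences in the enzyme values given here was not tested. Over all genes tested, 13.5% were called higher and 14.1% lower in ceca. Of 6 proliferation genes, 0 passed the limma test, although 1 (MKI67) had an unadjusted p under 0.05 and passed with the replicate block (adjusted p = 0.0121), and 1 gene passed without interceca replicate 1 or 3. Of 4 red blood cell genes, 0 passed the limma test and 2 (HBE and HBZ) had an unadjusted p under 0.05. HBE passed with the replicate block (adjusted p = 0.0252), and 2 passed without interceca replicate 1. With limma-voom on recovered reads, 0 proliferation genes and 1 red blood cell gene passed, while HBAA and HBAD were listed at 0 in all libraries.

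The enzymes differed between the tissues mostly by small amounts. Of the 29 enzymes tested, ceca had a higher level of 1 and lower levels of 11, and 17 missed the threshold of an adjusted p of 0.05 (limma on log2(RPKM + 0.5), adjusted over all 10678 genes tested). That is 37.9% of the tested enzymes lower and 3.45% higher, beside a background over all genes tested of 14.1% lower and 13.5% higher (27.5% called in either direction). Of the 11 lower enzymes, FBP1 passed the expression filter (1 RPKM in 3 or more libraries) mainly through interceca. The median log2 fold change, ceca over interceca, was -0.10 over the enzymes and 0.01 over all genes tested. It was negative for 19 of the 29 enzymes, which is 65.5%, beside 48.0% of all genes tested. In 12 enzymes all ceca libraries lay below all interceca libraries and in 2 they lay above, against a background of 44.1% of all genes without overlap, 21.1% lower and 23.0% higher. Of the 12 called enzymes, 10 differed by less than 0.5 on the log2 scale, as did 47.7% of all called genes. The count of lower enzymes was 7 without ceca replicate 1, 7 without ceca replicate 2, 5 without ceca replicate 3 and 7 without interceca replicate 2, and the count of higher ones was 0 without ceca replicate 3. With the replicate number as a block, 2 were higher and 14 lower, and with no trend 7 were lower. Calls over all genes tested also rose with the block and fell with no trend. The counts of enzymes under these fits are therefore not read beside the background of the main fit.

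**Figure D1:**
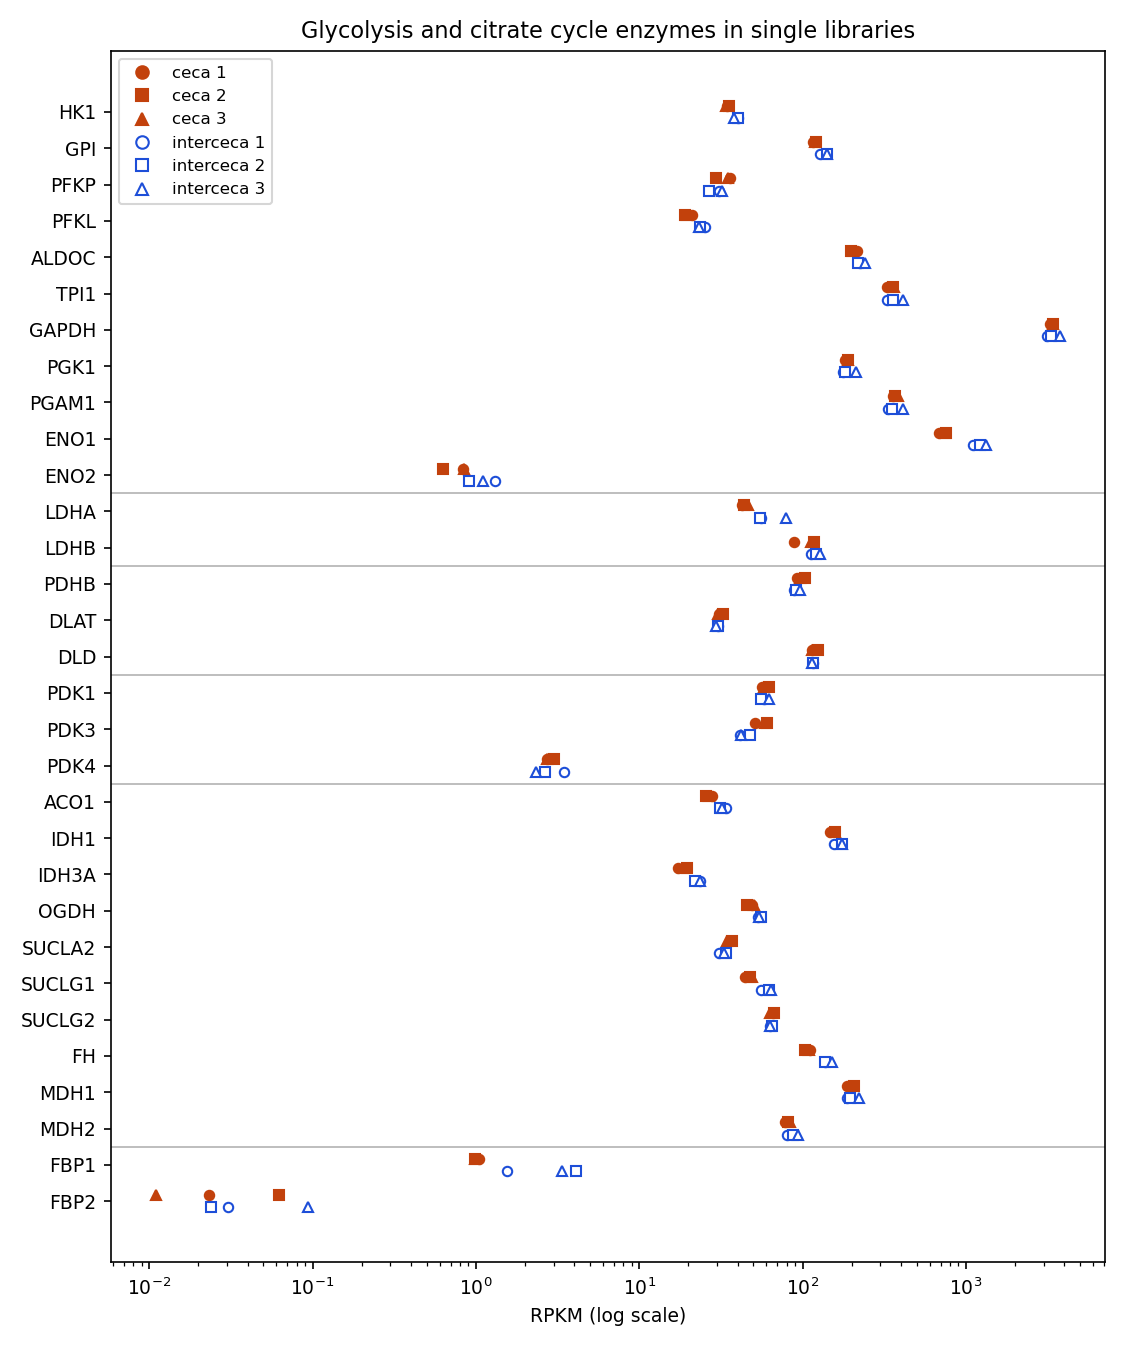
RPKM of each enzyme above 0 in single libraries, on a log axis, with ceca (filled) above interceca (open) in each row and horizontal lines between functional groups. Circles, squares and triangles are replicates 1, 2 and 3. Levels ran from 0.0110 to 0.0933 RPKM for FBP2 up to 3135 to 3749.8 RPKM for GAPDH, and the tissues lay close together for most enzymes.

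**Figure D2:**
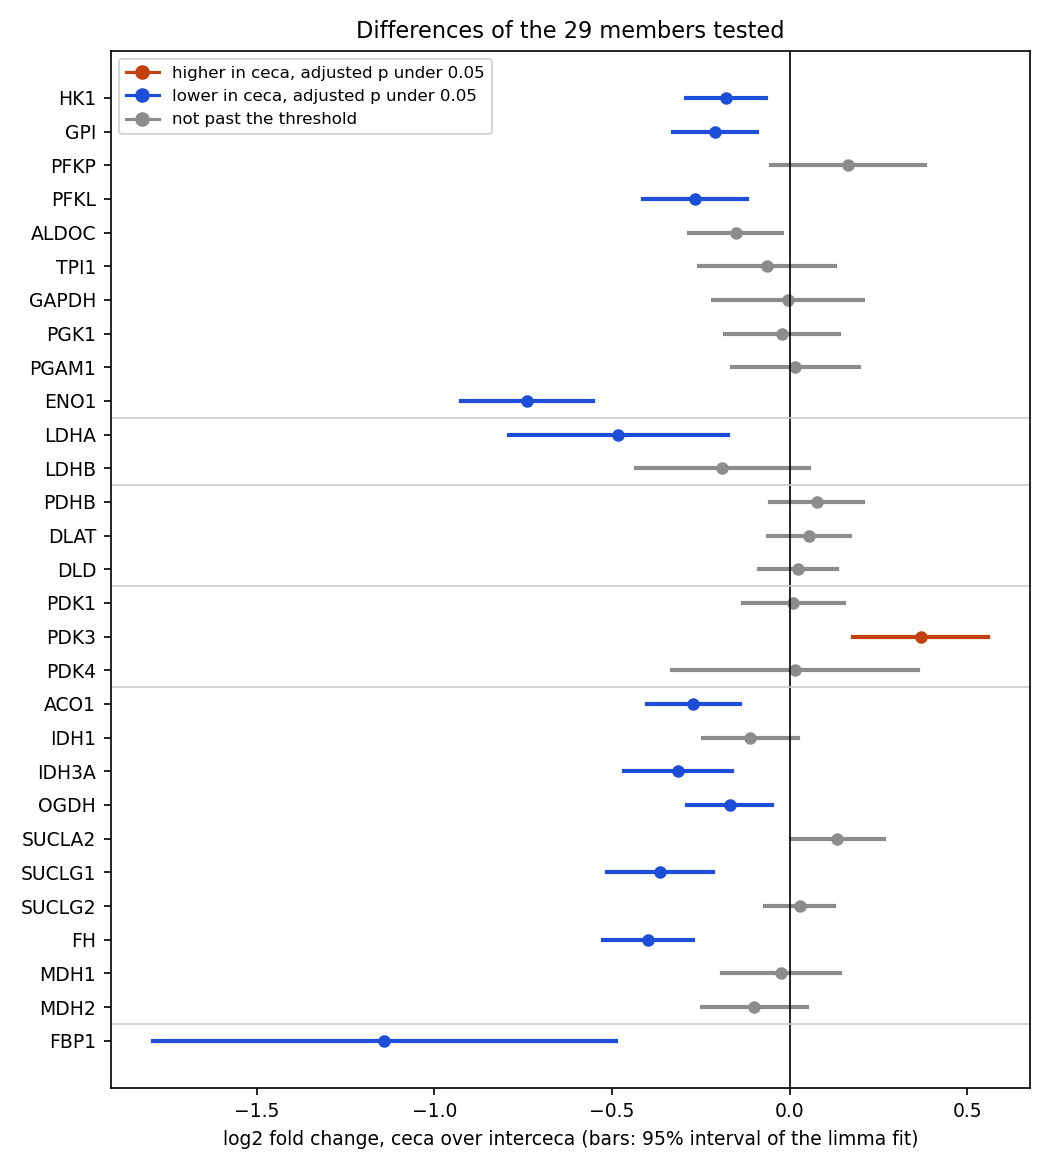
Log2 fold change of ceca over interceca for the 29 enzymes tested, in pathway order, with the 95% interval of the limma fit. ENO1 and FBP1 lay furthest to the left, and PDK3 was the 1 called enzyme to the right of 0.

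Of the enzymes that open glycolysis, HK1, GPI and PFKL were called lower in ceca, by small amounts. HK1, the hexokinase that traps glucose as glucose 6-phosphate, had 34.7, 35.7 and 33.8 RPKM in ceca replicates 1 to 3, against 40.2, 40.1 and 37.9 RPKM in interceca. The tissues did not overlap, and HK1 was 1.13-fold lower in ceca (log2 fold change -0.18 ± 0.05 SE, adjusted p = 0.0287). Its adjusted p was 0.0689 and 0.110 without ceca replicates 1 and 3, 0.0793 and 0.0969 without interceca replicates 1 and 2, and 0.0577 with no trend. HK2, the hexokinase of muscle and of many growing cells, was listed at 0 in all 6 libraries.

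GPI, the isomerase of the next step, had 115, 120.2 and 118 RPKM in ceca against 128, 140.4 and 142 RPKM in interceca. Again the ceca libraries all lay lower, by 1.16-fold (-0.21 ± 0.05, adjusted p = 0.0180). Leaving out replicate 1 or 3 of the ceca gave an adjusted p of 0.0540 and 0.0595 for GPI, leaving out replicate 2 or 3 of the interceca gave 0.0713 and 0.0585, and no trend gave 0.0507.

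Phosphofructokinase, the main control point of glycolysis, is built from subunits that 3 of the named genes encode, of which PFKL was called. PFKL, the liver type, had 21.0, 19.0 and 19.7 RPKM in ceca against 25.4, 23.6 and 23.2 RPKM in interceca. The ceca libraries lay below the interceca libraries without overlap (-0.27 ± 0.06, adjusted p = 0.0159, but 0.0568 without ceca replicate 2 and 0.0598 without ceca replicate 3). PFKP, the platelet type, averaged 33.6 ± 3.44 RPKM in ceca and 29.9 ± 2.77 RPKM in interceca (SD, n = 3 each). Its libraries overlapped and its log2 fold change of 0.16 ± 0.09 did not pass (adjusted p = 0.241, and 0.0314 with the replicate block). PFKM, the muscle type, was listed at 0 throughout.

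ALDOC, an aldolase, averaged 205 ± 9.45 RPKM in ceca and 228 ± 12.6 RPKM in interceca (log2 fold change -0.15 ± 0.06, adjusted p = 0.0817, and 0.0321 with the replicate block). All ceca libraries lay below the interceca libraries, although the test did not pass.

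The abundant enzymes of the middle of glycolysis gave no call. GAPDH, which oxidises glyceraldehyde phosphate and is often used as a loading control, was the most abundant of the 34 enzymes, at 3291, 3397 and 3435 RPKM in ceca and 3135, 3304 and 3749.8 RPKM in interceca. The interceca libraries spanned the ceca ones on both sides, with a log2 fold change of -0.01 and a 95% interval of -0.22 to 0.20 (adjusted p = 0.972). TPI1, triose phosphate isomerase, averaged 349.98 ± 18.6 RPKM in ceca and 367 ± 40.8 RPKM in interceca, an interval of -0.25 to 0.13 on the log2 scale. For PGK1, which makes the first ATP of the pathway, the averages were 187 ± 3.80 RPKM in ceca and 190.3 ± 18.9 RPKM in interceca, an interval of -0.18 to 0.14. For PGAM1, phosphoglycerate mutase, they were 369.5 ± 14.7 RPKM in ceca and 367 ± 39.0 RPKM in interceca, an interval of -0.16 to 0.19. TPI1, GAPDH, PGK1 and PGAM1 were each highest in interceca replicate 3, which was the highest interceca library for 16 of the 29 enzymes tested and for 35.8% of all genes tested.

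ENO1, the enolase of most cells, had the largest difference among the 10 glycolytic enzymes tested. It had 683, 756 and 749 RPKM in ceca replicates 1 to 3, against 1104, 1225 and 1330.1 RPKM in interceca. The highest ceca library lay well below the lowest interceca library, and ENO1 was 1.67-fold lower in ceca (log2 fold change -0.74 ± 0.08, adjusted p = 0.000364). Over the other processing choices its adjusted p ran from 2.18e-05 to 0.00300, always past the threshold. The log2 ratio of ENO1 to PGAM1, the enzyme just before it, was 0.98 ± 0.06 in ceca and 1.73 ± 0.04 in interceca (SD, n = 3 each). To PKM, the pyruvate kinase just after it, the log2 ratio was 1.43 ± 0.08 in ceca and 2.10 ± 0.09 in interceca. Both ratios differed in every library of ceca from every library of interceca. They were chosen after their values were seen and get no test, and a ratio within a library depends on how that library was scaled only through the added 0.5 RPKM. ENO2, the enolase typical of neurons, was below the filter at 0.830, 0.631 and 0.851 RPKM in ceca and 1.31, 0.901 and 1.11 RPKM in interceca.

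**Figure D3:**
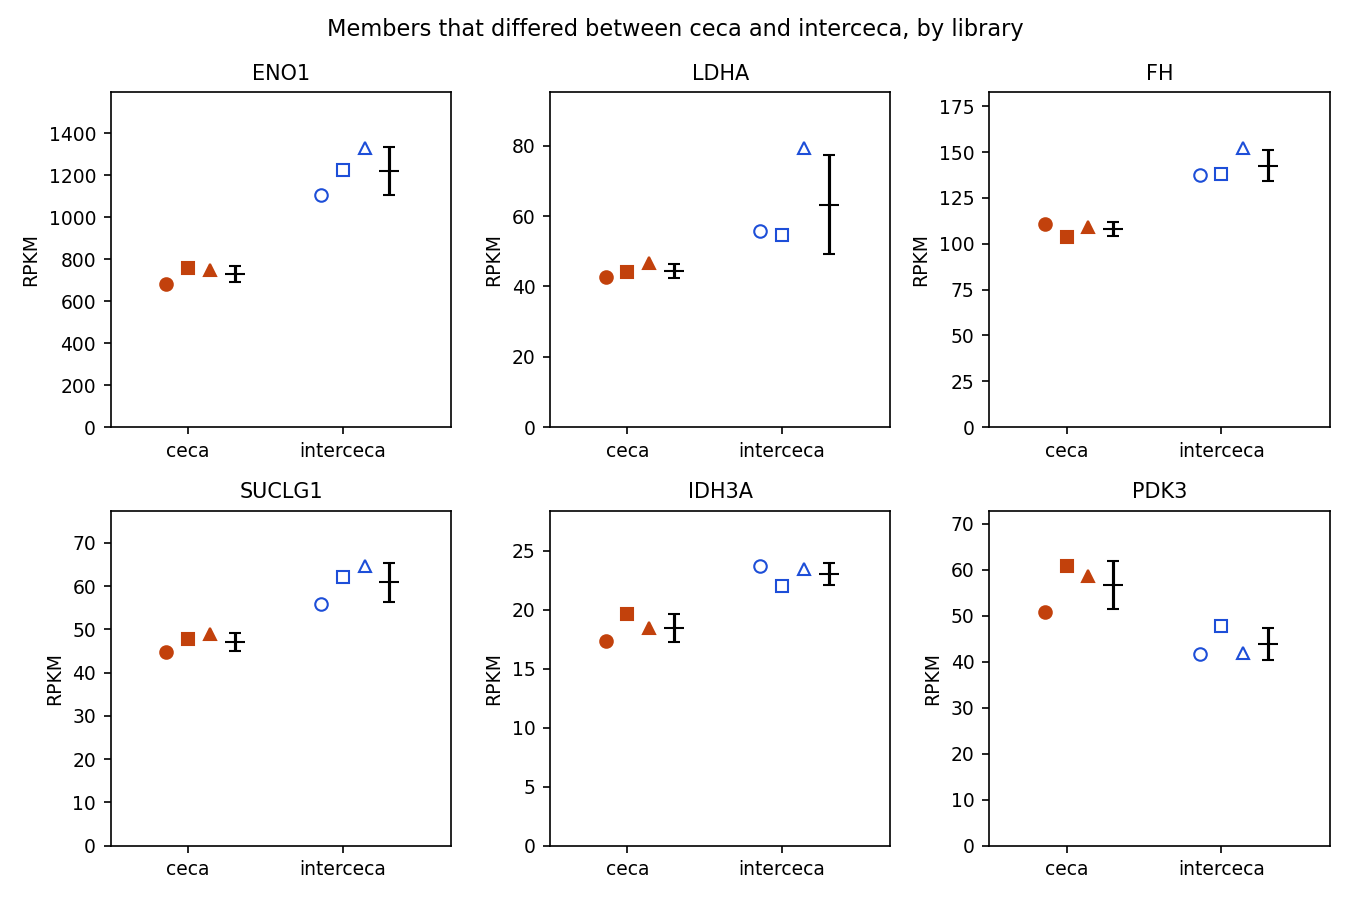
RPKM of 6 called enzymes in single libraries (circles, squares and triangles for replicates 1, 2 and 3) with mean and SD (bars), ceca left of interceca. ENO1, LDHA, FH, SUCLG1 and IDH3A lay lower in all 3 ceca libraries and PDK3 higher, and replicate 3 of interceca set LDHA's spread there, at 79.4 RPKM.

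The pathway's exit to lactate was lower in ceca for LDHA. LDHA, the subunit of lactate dehydrogenase that favours making lactate, had 42.8, 44.0 and 46.5 RPKM in ceca against 55.6, 54.6 and 79.4 RPKM in interceca. Interceca replicate 3 stood above the other interceca libraries, and the tissues did not overlap. LDHA was 1.40-fold lower in ceca (-0.48 ± 0.13, adjusted p = 0.0297). Without interceca replicate 3 the log2 fold change was -0.31 with an adjusted p of 0.00821. Leaving out ceca replicate 1, 2 or 3 gave LDHA an adjusted p of 0.0741, 0.0766 and 0.0635, while it was 0.0597 with no trend and 0.0515 with no filter. LDHB, the subunit that favours using lactate, had 88.4, 118 and 113 RPKM in ceca against 113, 121 and 128 RPKM in interceca. Only ceca replicate 1 lay clearly apart, and the log2 fold change of -0.19 ± 0.10 did not pass (adjusted p = 0.224, and 0.0449 with the replicate block). Per length, LDHB was the more abundant subunit in every library.

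The pyruvate dehydrogenase complex gave no call among the 3 subunits named. PDHB, part of its first enzyme, averaged 97.6 ± 5.83 RPKM in ceca and 92.5 ± 3.84 RPKM in interceca, and the 95% interval of its log2 fold change was -0.05 to 0.21. For DLAT, the acetyltransferase core, the interval was -0.06 to 0.17, and for DLD, the shared dihydrolipoamide dehydrogenase, it was -0.09 to 0.13. Their libraries overlapped, at 30.4 to 32.6 RPKM in ceca and 29.5 to 30.5 RPKM in interceca for DLAT.

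Of the kinases that switch the complex off, PDK3 was the enzyme higher in ceca. It had 50.9, 60.8 and 58.7 RPKM in ceca against 41.7, 47.8 and 42.0 RPKM in interceca. All ceca libraries lay above all interceca libraries, a 1.29-fold difference (0.37 ± 0.08, adjusted p = 0.0122, but 0.0512 without ceca replicate 3). PDK1, a target of the hypoxia factor HIF1A, stood at 56.4, 62.7 and 58.4 RPKM in ceca and 57.8, 55.8 and 62.7 RPKM in interceca, and the interval of its log2 fold change was -0.13 to 0.15. PDK4, the kinase induced by fasting and fatty acids, was scarce at 2.72, 3.00 and 2.73 RPKM in ceca and 3.46, 2.65 and 2.34 RPKM in interceca. Its interval of -0.33 to 0.36 was wider than that of PDK1.

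Within the citrate cycle, 5 of 10 enzymes tested were lower in ceca, none was higher and 5 did not pass. Over all genes tested, 14.1% were lower and 13.5% higher. CS, the citrate synthase that opens the cycle and that nearly all cells use, was listed at 0 in all 6 libraries, so a listed 0 is not read here as absence of the transcript. ACO1, the cytosolic aconitase, which doubles as an iron-sensing RNA-binding protein, had 28.0, 25.8 and 26.9 RPKM in ceca against 34.2, 31.3 and 32.3 RPKM in interceca. The ceca libraries all lay lower (-0.27 ± 0.06, adjusted p = 0.00921). IDH3A, the catalytic subunit of the mitochondrial isocitrate dehydrogenase that uses NAD, had 17.3, 19.6 and 18.4 RPKM in ceca and 23.7, 22.0 and 23.5 RPKM in interceca. It too was lower without overlap, by 1.24-fold (-0.31 ± 0.07, adjusted p = 0.00909). IDH1, the cytosolic enzyme that makes NADPH, averaged 155 ± 6.47 RPKM in ceca and 168 ± 10.4 RPKM in interceca, and its log2 fold change of -0.11 ± 0.06 did not pass (adjusted p = 0.199, and 0.0390 with the replicate block).

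OGDH, the oxoglutarate dehydrogenase of the next step, had 49.1, 45.7 and 50.8 RPKM in ceca against 53.6, 55.6 and 54.5 RPKM in interceca. Although the tissues did not overlap, the call (-0.17 ± 0.05, adjusted p = 0.0439) was lost whenever a library was left out. The adjusted p was then 0.0775, 0.133 and 0.0527 without ceca replicates 1 to 3 and 0.0699, 0.133 and 0.0961 without interceca replicates 1 to 3, and it was 0.0890 with no trend.

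Succinyl-CoA ligase pairs a common subunit, SUCLG1, with either SUCLA2, which makes ATP, or SUCLG2, which makes GTP, and of the 3 genes SUCLG1 was called. SUCLG1 had 44.7, 47.7 and 48.9 RPKM in ceca against 55.9, 62.2 and 64.6 RPKM in interceca. Lower in every ceca library, it differed 1.29-fold (-0.37 ± 0.06, adjusted p = 0.00421). SUCLA2 lay higher in every ceca library, at 36.0, 36.8 and 34.4 RPKM in ceca against 30.6, 33.9 and 33.2 RPKM in interceca, but its log2 fold change of 0.13 ± 0.06 did not pass (adjusted p = 0.123). SUCLG2 averaged 65.0 ± 1.89 RPKM in ceca and 63.8 ± 0.775 RPKM in interceca, an interval of -0.07 to 0.13. The log2 ratio of SUCLG1 to SUCLA2, chosen after its values were seen, was 0.39 ± 0.10 in ceca and 0.89 ± 0.05 in interceca, with no overlap.

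FH, the fumarase whose loss causes fumarate to build up, had 111, 104 and 109 RPKM in ceca against 137, 138 and 152 RPKM in interceca. The libraries did not overlap, and FH was 1.32-fold lower in ceca (-0.40 ± 0.05, adjusted p = 0.00112). MDH1 and MDH2, the cytosolic and mitochondrial malate dehydrogenases that follow it, did not pass. MDH1 averaged 199 ± 10.6 RPKM in ceca and 203 ± 18.2 RPKM in interceca, an interval of -0.19 to 0.14. For MDH2 the averages were 81.1 ± 2.75 RPKM in ceca and 87.1 ± 7.10 RPKM in interceca, an interval of -0.25 to 0.05. ENO1, FH, SUCLG1, IDH3A and ACO1 were the 5 enzymes called under each of the 15 other processing choices.

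Gluconeogenesis is the route from pyruvate back to glucose in liver, kidney and intestinal epithelium, and of its named enzymes only FBP1 passed the filter. FBP1, the fructose bisphosphatase of that route, had 1.04, 0.990 and 0.988 RPKM in ceca, from 64 to 68 reads per library, against 1.55, 4.09 and 3.38 RPKM in interceca, from 73 to 244 reads. Ceca libraries sat close together and interceca replicate 1 well below the other 2 interceca libraries. Of the ceca libraries only replicate 1 reached 1 RPKM. FBP1 thus passed the filter mainly through interceca, which favours a call of lower in ceca. FBP1 was 2.20-fold lower in ceca, a size that the added 0.5 RPKM shrinks for a gene this scarce (-1.14 ± 0.28, adjusted p = 0.0192). Its adjusted p was 0.0523 and 0.0595 without ceca replicates 2 and 3, 0.0667 and 0.0734 without interceca replicates 2 and 3, and 0.0527 with quantile normalization. FBP2, the muscle isozyme, whose gene neighbours FBP1 in the RefSeq table of assembly GRCg7b, had 1 to 9 reads per library in all. The row named PEPCK, an older symbol of PCK1 in that table and not matched by the rule, encodes the enzyme that commits oxaloacetate to gluconeogenesis. It was below the filter, at 0.134, 0.120 and 0.0318 RPKM in ceca and 0.614, 0.483 and 0.375 RPKM in interceca, from 2 to 28 reads.

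SLC2A2, the glucose carrier of liver and absorptive epithelium, was picked from the wider lists after its values were seen and was also lower in ceca. It had 0, 0.210 and 0.139 RPKM in ceca against 2.95, 3.26 and 3.70 RPKM in interceca (-2.64 ± 0.19, adjusted p = 5.39e-05). SLC2A2 passed the filter only through the interceca libraries, so lower in ceca was the only call open to it. The summed epithelial markers, like SLC2A2, were lowest in replicate 1 of each tissue, at 93.1 RPKM in ceca and 477 RPKM in interceca. FBP1 was lowest in interceca replicate 1 too. Its ceca libraries were nearly equal, at 1.04, 0.990 and 0.988 RPKM from 64 to 68 reads, and are not ranked. In interceca, FBP1 was highest in replicate 2 (4.09 RPKM) and the summed markers in replicate 3 (717 RPKM). Of 5 tested markers of hepatocytes, yolk sac or absorptive endoderm, all 5 were lower in ceca, with sums of 16.2 to 22.2 RPKM in ceca over the 9 found against 240 to 282 RPKM in interceca. TF averaged 8.49 ± 2.30 RPKM in ceca and 157 ± 20.6 RPKM in interceca. TTR averaged 0.404 ± 0.402 RPKM in ceca and 68.6 ± 1.74 RPKM in interceca, and FGB was 6.04-fold lower in ceca. TTR also passed the filter only through the interceca libraries, so its call could only be lower. APOH, at an adjusted p of 0.0352, missed the threshold without ceca replicate 1 or 3 (0.0758 and 0.0994), without interceca replicate 1, 2 or 3 (0.0583, 0.117 and 0.0985) and with quantile normalization (0.0868). With any of the interceca libraries left out, 4 such markers were tested and 3 were lower. ALB was below the filter and went the other way. It had 0.531, 0.656 and 0.596 RPKM in ceca against 0.373, 0.490 and 0.383 RPKM in interceca. APOB stayed at or below 0.00388 RPKM in each library. The part of these cell types in the difference of FBP1 was not tested.

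**Figure D4:**
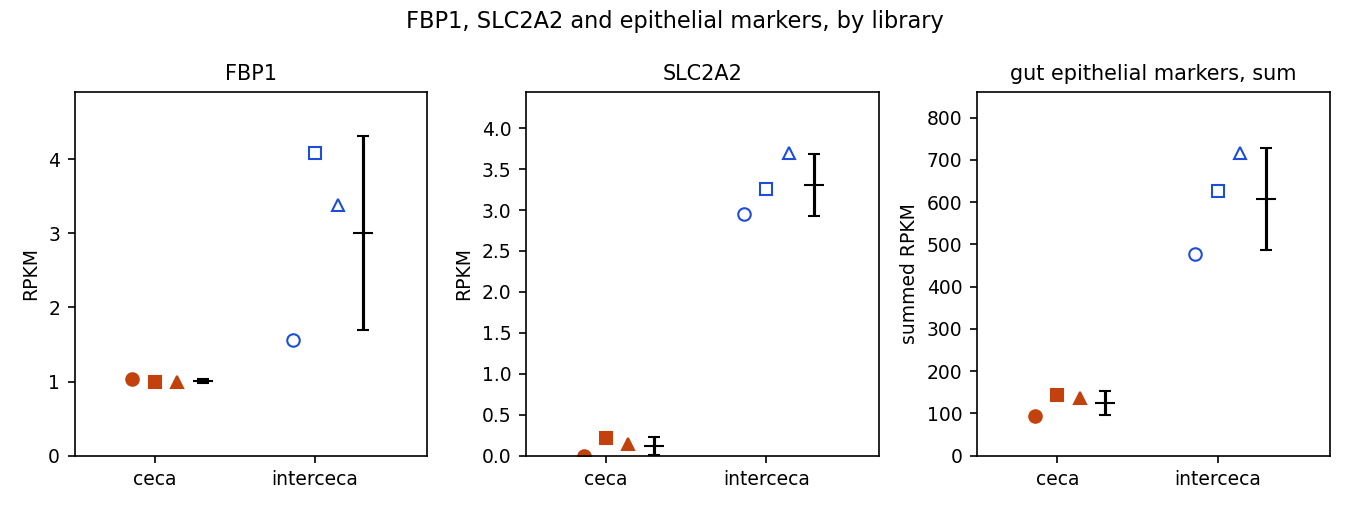
RPKM of FBP1 and SLC2A2 and the summed RPKM of the 11 gut epithelial markers found, in single libraries with mean and SD, ceca left of interceca. All were lower in every ceca library, and within interceca replicate 1 (circle) was the lowest.

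Isozyme ratios within a library were compared for 10 pairs of enzymes that share a reaction. In 5 pairs the ceca and interceca libraries did not overlap, beside 44.1% of single genes tested. Such a share was not computed for ratios of other genes. For FBP1 to FBP2, 1 of the 5 pairs without overlap, the few reads of FBP2 let the added 0.5 RPKM set the ratio, so it is not read further. With 3 libraries against 3, the exact two-sided permutation test cannot go below p = 0.1, which these 5 pairs reached (0.2 when adjusted over the pairs), so none can pass the threshold. The log2 ratio of PFKP to PFKL was 0.74 ± 0.10 in ceca and 0.30 ± 0.14 in interceca (SD, n = 3 each). The ratio of PDK1 to PDK3 was near equality in ceca, at 0.06 ± 0.08, and 0.42 ± 0.18 in interceca. Smaller shifts were seen for SUCLA2 to SUCLG2, at -0.85 ± 0.01 in ceca and -0.96 ± 0.07 in interceca, and for MDH1 to MDH2, at 1.29 ± 0.05 in ceca and 1.21 ± 0.04 in interceca. For LDHA to LDHB the ratio was -1.24 ± 0.19 in ceca and -0.95 ± 0.24 in interceca, with overlap. Overlap was also found for ENO2 to ENO1, PDK4 to PDK1 and IDH1 to IDH2.

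**Figure D5:**
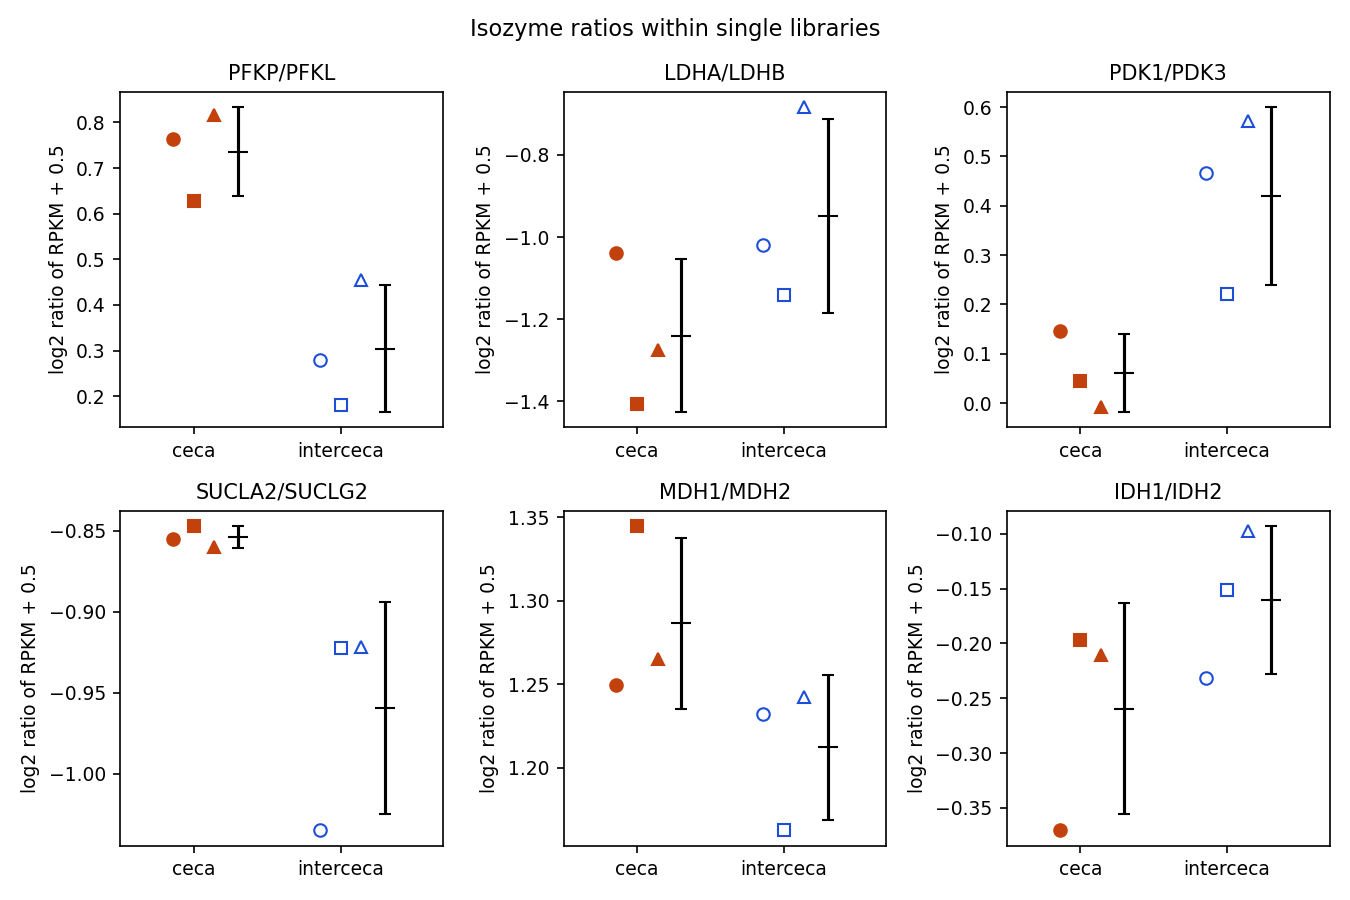
Log2 ratio of RPKM + 0.5 between 6 isozyme pairs within single libraries (points) with mean and SD (bars), ceca left of interceca. PFKP/PFKL, SUCLA2/SUCLG2 and MDH1/MDH2 lay higher and PDK1/PDK3 lower in all ceca libraries, while LDHA/LDHB and IDH1/IDH2 overlapped.

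A wider set of 100 genes was listed from general knowledge, with earlier results of these data known. Beside other genes of sugar metabolism it held 16 known regulators and 13 other HIF target genes. Of the 76 found, 67 were tested. Ceca had higher levels of 12 (17.9%) and lower levels of 19 (28.4%) of them, and 36 failed the test, beside the background of 13.5% higher and 14.1% lower over all genes tested (27.5% in either direction), with a median log2 fold change of -0.03. The counts of each list below are read beside the same background. Among other glycolysis genes, 2 were higher, 2 lower and 5 not past. PKM, the pyruvate kinase that ends glycolysis, averaged 269.5 ± 1.86 RPKM in ceca and 283 ± 12.9 RPKM in interceca and did not pass (-0.07 ± 0.05, adjusted p = 0.308). HK3, another hexokinase, was 1.86-fold higher in ceca at a low level, 3.55 ± 0.483 RPKM against 1.67 ± 0.251 RPKM in interceca, and BPGM, bisphosphoglycerate mutase, was 1.24-fold higher. LDHD, which acts on the mirror form of lactate, was 1.37-fold lower.

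Glycogen and sugar phosphate genes included no higher member, 3 lower and 5 not past. PGM1, which links glycogen to glycolysis, was 2.05-fold lower in ceca, at 10.3 ± 1.39 RPKM against 21.5 ± 1.60 RPKM in interceca (-1.04 ± 0.10, adjusted p = 0.000232). PGM2 was lower too, by 1.30-fold. PYGL, the liver glycogen phosphorylase, was 1.17-fold lower (adjusted p = 0.0268), but missed the threshold without ceca replicate 1 (0.0735), 2 (0.0779) or 3 (0.0614) and without interceca replicate 2 (0.0734) or 3 (0.0837). Of the pentose phosphate genes, 1 was higher, 2 lower and 2 not past, with RPIA, the ribose phosphate isomerase, 1.49-fold lower (-0.58 ± 0.08, adjusted p = 0.00107). TALDO1, transaldolase, was 1.14-fold lower (adjusted p = 0.0339). It missed the threshold without ceca replicate 1, 2 or 3 (0.0827, 0.0687 and 0.105), without interceca replicate 2 or 3 (0.0805 and 0.0767) and with no trend (0.0790). TKT, transketolase, was 1.13-fold higher (adjusted p = 0.0155, but 0.0543 without ceca replicate 3 and 0.0567 without interceca replicate 2).

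The remaining subunits of the pyruvate dehydrogenase complex and its regulators had 1 higher, 1 lower and 3 not past. PDHA1, the catalytic partner of PDHB, was 1.15-fold lower in ceca, at 51.1 ± 1.12 RPKM against 58.8 ± 0.822 RPKM in interceca (-0.20 ± 0.04, adjusted p = 0.00905). PDP1, the phosphatase that reverses the PDK kinases, was higher, as PDK3 was, at 25.6 ± 1.91 RPKM against 20.1 ± 1.29 RPKM in interceca (adjusted p = 0.0125, and 0.0538 without ceca replicate 3).

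In the rest of the citrate cycle, 1 gene was higher, 1 lower and 4 not past, while IDH3B, IDH3G and SDHC were listed at 0. SDHA, the flavoprotein of succinate dehydrogenase, which acts between SUCLG1 and FH, was 1.40-fold lower in ceca, at 60.7 ± 0.724 RPKM against 85.6 ± 6.61 RPKM in interceca (-0.49 ± 0.06, adjusted p = 0.000599). OGDHL, a relative of OGDH, was 1.47-fold higher (0.56 ± 0.11, adjusted p = 0.00673). A separate list of malic enzymes and citrate lyase had 0 higher, 2 lower and 1 not past. Its ACLY, which makes acetyl-CoA from citrate for lipid synthesis, was 1.26-fold lower (-0.33 ± 0.04, adjusted p = 0.000601). ME3, a mitochondrial malic enzyme, was 1.25-fold lower (adjusted p = 0.0296), but missed the threshold without ceca replicate 1 or 2 (0.0818 and 0.0913), without interceca replicate 2 or 3 (0.0776 and 0.0848) and with no trend (0.0586).

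Carriers of sugars and acids had 2 higher, 4 lower and 4 not past, beside 13.5% higher and 14.1% lower over all genes tested. SLC16A1 and SLC16A7, which move lactate and pyruvate, were 1.21-fold and 1.68-fold higher in ceca. SLC2A1, the general glucose carrier, averaged 33.0 ± 1.57 RPKM in ceca and 39.0 ± 2.63 RPKM in interceca (-0.24 ± 0.06, adjusted p = 0.0276). Its adjusted p was 0.0611 and 0.0915 without ceca replicates 1 and 2, 0.0743 and 0.0640 without interceca replicates 1 and 3, and 0.0551 with no trend. SLC2A9, a carrier of urate, was 4.04-fold lower, and SLC2A2 was lower too, as above. SLC25A1, which carries citrate out of mitochondria, was 1.14-fold lower (adjusted p = 0.0272). Without ceca replicates 1, 2 and 3 its adjusted p was 0.0813, 0.0518 and 0.0694, without interceca replicates 2 and 3 it was 0.0949 and 0.0823, and with no trend it was 0.0595.

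Known regulators of these enzymes had 2 higher, 1 lower and 7 not past, beside 27.5% of all genes tested called in either direction. MYC, which activates glycolytic genes, averaged 30.5 ± 0.184 RPKM in ceca and 24.3 ± 1.28 RPKM in interceca (0.32 ± 0.05, adjusted p = 0.00333). HIF1A, the hypoxia factor, was 1.10-fold higher (0.14 ± 0.04, adjusted p = 0.0441), a call that 7 of 15 other processing choices ended. These were leaving out ceca replicate 1, 2 or 3 (0.107, 0.117 and 0.1001), leaving out interceca replicate 2 or 3 (0.112 and 0.121), no trend (0.0928) and quantile normalization (0.0801). EPAS1, its relative, was 1.80-fold lower in ceca (-0.84 ± 0.10, adjusted p = 0.000455). PPARGC1A, a driver of mitochondrial genes, was below the filter. Of 11 other genes known as HIF targets, 3 were higher (PLOD2, P4HA2 and BNIP3L), 3 were lower (NDRG1, CA9 and P4HA1) and 5 did not pass. PLOD2, a collagen lysyl hydroxylase, was 1.46-fold higher in ceca, and NDRG1, a stress-response gene, was 1.56-fold lower. BNIP3L missed the threshold without ceca replicate 2 or 3 (0.0845 and 0.0860), without interceca replicate 1, 2 or 3 (0.0618, 0.0516 and 0.0506) and with no trend (0.0649). P4HA1 missed it without ceca replicate 1 (0.0554) and without interceca replicate 2 or 3 (0.0503 and 0.0523).

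As a whole the 34 enzymes took 1.11 to 1.19% of the summed RPKM of a ceca library and 1.18 to 1.34% of that of an interceca library. Glycolysis without GAPDH summed to 1975, 2073 and 2096 RPKM in ceca and 2397, 2571 and 2841 RPKM in interceca. ENO1 was the largest contributor, at 683, 756 and 749 RPKM in ceca and 1104, 1225 and 1330.1 RPKM in interceca. The sums without ENO1 were not computed, so the gap between these sums is not read as one of the whole pathway. In the authors' deposited table, 10 of the 34 enzymes had an adjusted p under 0.05, and these 10 were also called here. HK1, with an adjusted p of 0.0512 in the authors' deposited table, and OGDH, with 0.0863 there, were called here only.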

How the data were processed

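RNA-seq was analysed from 3 ceca and 3 interceca libraries. The authors deposited RPKM per library, and the 6 per-library files equal the series table. The tools named are STAR, HTSeq, edgeR and bcl2fastq and the build galGal4, per the submitters' processing notes. What each did, its version and any use of strand in counting is not stated there (the kit was directional, per the labels), so overlapping and antisense genes are uncertain. Per the file headers, the table also holds the authors' log2 fold change, p-values, adjusted p-values and their -log10. The deposited log2 column runs as ceca over interceca, by the RPKM columns. A row of column totals was left out.

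RPKM are not counts, so limma 3.58.1 (R 4.3.3, trend, tissue as the only term, two-sided) was run on log2(RPKM + 0.5) for the 10678 genes that reached 1 RPKM in 3 or more libraries, with Benjamini-Hochberg adjustment over all of them and a threshold of 0.05. The 95% intervals use the moderated error. Each gene's RPKM are multiples of a step, which gave whole reads, within 0.01 read, for 99.99% of 14080 genes above 0. Library sizes implied by the steps were 1.01 to 1.03 times the recovered reads. The limit that a count of 0 allows (3 reads) was 1.33e-05 to 1.93e-05% of a library, counting error only. The fit was also run on simulated reads without replicate pairs. Their changed genes had larger fold changes than most enzymes called here, so that run does not bear on those calls. Across genes, deviations from tissue means correlated at 0.364, 0.227 and 0.213 between libraries with the same replicate number. Otherwise they correlated at -0.238 to 0.0314. An alternative fit, the replicate block, therefore treated the replicate numbers as pairs, a hint that rests on the data and not on the labels. The main fit did not pair them. Alternatives were other pseudocounts, filters, scalings, no trend, limma-voom on recovered reads, the replicate block and leaving out each library.

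The enzymes and lists were chosen with earlier results of these data known. Named in full are called enzymes and preset key ones, and of each wider list the called genes with the smallest p, with PKM. Some listed genes that enter the counts are not reported here by name. A RefSeq table of GRCg7b matched 3 listed genes by older symbols, and its coordinates served only to order genes when neighbours were looked up. Ratios and figures used scipy 1.17.1, numpy 2.4.6, matplotlib 3.10.9 and pandas 2.3.3 under Python 3.11.15.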

Additional observations from a re-analysis of the deposited data

How the results depend on the processing

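ENO1, FH, SUCLG1, IDH3A and ACO1 were called under all 15 alternatives, and 21 of the 31 called genes of the wider lists were called under each alternative that tested them. Of 433 values of single enzymes under an alternative, 380 kept direction and side of the threshold, 30 lost the call, 4 gained it and 19 changed sign, and none of the called enzymes changed sign. With no trend 7 enzymes were called lower. With the replicate block 2 were called higher (PDK3 and PFKP) and 14 lower, which added ALDOC, LDHB and IDH1, and the block changed no other enzyme's call. Over all genes tested, the block likewise gave more calls than the main fit, and no trend gave fewer. When a library was left out, 5 to 9 enzymes were called lower and 0 to 1 higher, and 2059 to 2521 genes were called in all, against 2941 with all libraries. Sign changes were limited to enzymes near 0. With quantile normalization the log2 fold change was 0.10 for GAPDH, 0.025 for PGK1 and 0.017 for MDH1. Over the fits that left out a library it ran from -0.14 to 0.021 for TPI1, -0.061 to 0.068 for GAPDH, -0.070 to 0.059 for PGK1, -0.048 to 0.099 for PGAM1, -0.019 to 0.047 for DLD, -0.033 to 0.057 for PDK1, -0.091 to 0.15 for PDK4 and -0.077 to 0.046 for MDH1. With a library left out, the difference of the log2 PDK4 to PDK1 ratio, ceca minus interceca, ran from -0.15 to 0.15. The cause of these changes was not tested. FBP1 and PDK4 were not tested with a filter at 5 RPKM, which they missed. No ratio was computed for HK2, PFKM or PCK1, listed at 0 or not matched. Low read numbers limit FBP1, FBP2, ENO2 and PEPCK.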
